A study of Mus musculus with 4 samples.

Results

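The genes described here are homeobox and PAX transcription factor genes of the cerebellar granule cell lineage. They were chosen by name as Barhl1, Barhl2, Meis1, Meis2, Pbx3, Pax6, Pax3, Lmx1a and Tlx3. Each was read through the probe set to which the platform annotation gives that symbol alone. Of these 9 genes, 8 had such a probe set, 1 each, among 19938 named genes in all. Lmx1a, a LIM homeobox gene of the roof plate and rhombic lip, had none and was not analysed here.

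Expression was measured on 4 Affymetrix Mouse Gene 1.0 ST arrays, each of total RNA from 1 sample. The first array held a medulloblastoma of a PtchLacZ/+ mouse aged 5 months, with lacZ in 1 allele of the Hedgehog receptor gene Ptch1. Another 2 held medulloblastomas, called SmoM2 tumours below, from Math1-Cre;SmoM2 mice of 2 months and of 1 month, in which the promoter of Math1 (Atoh1) drives Cre and so directs the active Smoothened protein to that lineage. The last held the whole cerebellum of an adult wild-type mouse aged 2 months. All mice had a mixed background of the C57BL/6 and C3H strains, and tumours arose spontaneously. The labels do not say how many animals each sample came from. The PtchLacZ/+ mouse was also the oldest, so its genotype and its age cannot be told apart.

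Granule neurons arise in the rhombic lip of the hindbrain from progenitors that express Atoh1, divide in the outer layer of the young cerebellum under Sonic hedgehog, then leave the cell cycle and migrate inward. Homeodomain proteins bind short AT-rich DNA sites and PAX proteins bind through a paired domain, and together they set which neuron a progenitor becomes. MEIS and PBX proteins belong to the TALE class of homeodomain proteins, which bind DNA as partners of each other and of Hox proteins. Medulloblastoma with constitutive Hedgehog signalling grows from the granule progenitors.

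Levels are log2 values as the authors deposited them, and a difference of 1 is a factor of 2. Array medians over named genes lay between 6.73 and 6.82, highest in the 2-month SmoM2 tumour. Over all probe sets that tumour had the lowest median, 6.12, and the 1-month SmoM2 tumour the highest, 6.36. No measured member was under the lower quartile of named genes (5.09 to 5.17) in any array. Levels of different genes were not set against each other, because probe sets differ in brightness. The marker genes were set against the labels. Atoh1 was at 11.98 in the PtchLacZ/+ tumour, 11.84 in the 2-month and 11.39 in the 1-month SmoM2 tumour, and 4.85 in the cerebellum. Gabra6, a receptor subunit gene of mature granule neurons, was at 4.64 in the PtchLacZ/+ tumour, 7.40 in the 2-month and 7.97 in the 1-month SmoM2 tumour, and 12.24 in the cerebellum.

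The tumours were first set against the cerebellum, which asks which of these factors distinguish Hedgehog-driven medulloblastoma from adult cerebellum. Barhl1 and Pbx3 rose, and no measured member passed as lower. These 2 of 8 compare with 16.0% of all genes that passed at an adjusted p under 0.05 in limma in either direction, with 6.70% as higher and 9.30% as lower. All 3 tumours lay above the cerebellum for 5 members (Barhl1, Barhl2, Meis1, Pbx3 and Tlx3), against 38.1% of all genes. They all lay below it for Meis2 and Pax3, against 32.0% of all genes, and on both sides of it for Pax6. The median difference was 0.51 over the 8 members and 0.04 over all genes. Only the tumours gave a spread in this test, which takes the lone cerebellum to be as variable. In whole tissue, more cells of a type and more RNA per cell cannot be told apart.

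**Figure D1:**
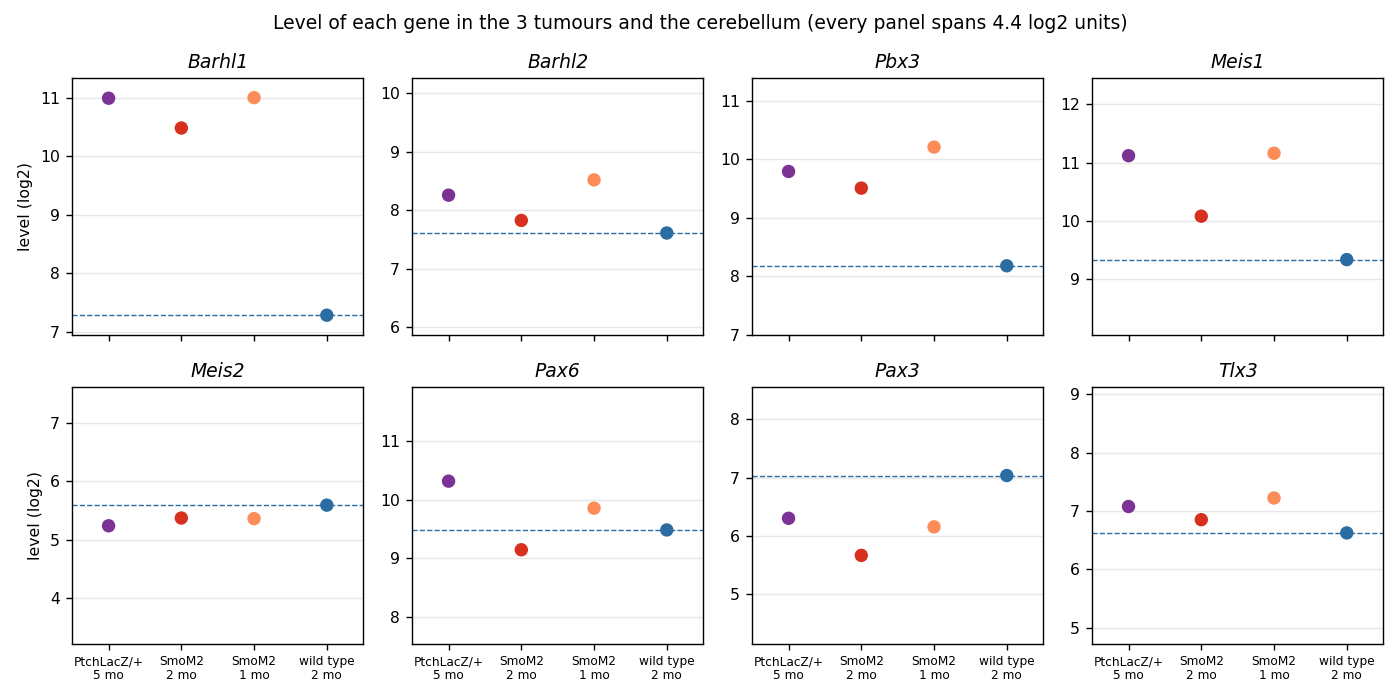
Level of each measured gene on the log2 scale (y axis) in the PtchLacZ/+ tumour, the 2-month and 1-month SmoM2 tumours and the wild-type cerebellum (x axis), 1 point per array, with a dashed line at the cerebellum's level. Every panel spans the same number of log2 units. Barhl1 shows the widest gap between tumours and cerebellum, and the points of Pax6 lie on both sides of the line.

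The BarH-like genes were read first. Barhl1 encodes a homeodomain factor that in mice acts downstream of Atoh1 and is needed for the migration and survival of granule cells. Its level was 10.99 in the PtchLacZ/+ tumour, 10.48 in the 2-month and 11.00 in the 1-month SmoM2 tumour, and 7.28 in the cerebellum. All 3 tumours stood far above the cerebellum and within 0.52 of each other. Barhl1 rose by 3.55 ± 0.27 (limma standard error), a factor of 11.7, with an adjusted p = 0.00432. This was the difference at place 107 from the top among the 19938 genes. Leaving out any tumour kept the call, with differences between 3.46 and 3.72.

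Barhl2, its paralogue, is known in mice for the fates of amacrine and ganglion cells in the retina and of dorsal spinal interneurons. Its level was 8.26 in the PtchLacZ/+ tumour, 7.83 in the 2-month and 8.52 in the 1-month SmoM2 tumour, and 7.61 in the cerebellum. The 3 tumours lay above the cerebellum, the 2-month SmoM2 tumour only by 0.22. The difference was 0.59 ± 0.30 and did not pass (adjusted p = 0.285). It passed without the 2-month SmoM2 tumour (0.78 ± 0.18, adjusted p = 0.0257), a fit in which 30.1% of all genes passed. The changes of the paralogues were not tested against each other.

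The start regions of the BarH genes are shown because Barhl1 passed the test by a wide margin while its paralogue did not pass. The windows are those of RefSeq on GRCm38.p6, with 250 bases before and 50 after an annotated start, read 5′ to 3′ on the gene's strand. Capitals mark matches, on either strand, to the class A E-box CAGCTG, a site of many bHLH factors, the homeodomain palindrome TAATTA and the MEIS half-site TGACAG. The E-box CAGATG of the Atoh1 and Neurod type and the Gli site TGGGTGGTC were searched too and had no match in any window of a member.
Barhl1 first start, chr2:28916619-28916918, minus strand: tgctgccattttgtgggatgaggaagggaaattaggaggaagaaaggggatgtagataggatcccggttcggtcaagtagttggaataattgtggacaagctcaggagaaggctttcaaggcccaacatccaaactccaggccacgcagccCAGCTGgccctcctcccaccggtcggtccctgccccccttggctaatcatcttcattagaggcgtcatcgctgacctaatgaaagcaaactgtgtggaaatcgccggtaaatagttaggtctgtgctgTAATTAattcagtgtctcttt
Barhl1 second start, chr2:28912446-28912745, minus strand: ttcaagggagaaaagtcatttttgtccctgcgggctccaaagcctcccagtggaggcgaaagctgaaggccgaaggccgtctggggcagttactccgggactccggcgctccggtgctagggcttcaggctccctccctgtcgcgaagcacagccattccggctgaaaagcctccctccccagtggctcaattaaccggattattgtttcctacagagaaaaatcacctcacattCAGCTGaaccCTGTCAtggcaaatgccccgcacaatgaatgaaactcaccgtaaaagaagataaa
Barhl2, chr5:106458117-106458416, minus strand: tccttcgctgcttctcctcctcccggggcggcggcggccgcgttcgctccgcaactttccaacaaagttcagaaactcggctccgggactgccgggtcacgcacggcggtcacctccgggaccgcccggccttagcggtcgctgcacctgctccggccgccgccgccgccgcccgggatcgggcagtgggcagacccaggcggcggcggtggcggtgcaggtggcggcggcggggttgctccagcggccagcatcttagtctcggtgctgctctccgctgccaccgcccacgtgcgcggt
Both Barhl1 windows held CAGCTG, beginning at base 152 of the first and base 236 of the second, counted from the 5′ end, and the Barhl2 window held none of the 5 motifs. The first Barhl1 window also held TAATTA at base 280 and the second held TGACAG, on the opposite strand, at base 246. Windows were found for 6 of the 8 measured members (all but Pbx3 and Pax3), 8 windows in all. CAGCTG stood in 2 of these 8 and in 16.3% of all 32851 promoter windows, TAATTA in 1 and in 5.29%, and TGACAG in 2 and in 19.2%. CAGATG stood in 17.2% and TGGGTGGTC in 0.253% of all windows. The motifs were chosen after these sequences had been viewed and with earlier results known. The counts and the contrast between Barhl1 and Barhl2 are therefore no test. E-boxes with other inner letters were not searched. The printed Barhl2 window holds some, so the contrast does not show that this window lacks E-boxes. Motif matches are letters in a window, and binding was not measured.

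The TALE genes came next, and of these Pbx3 alone passed. Pbx3 encodes a PBX homeodomain protein, a DNA-binding partner of MEIS proteins. Its level was 9.79 in the PtchLacZ/+ tumour, 9.51 in the 2-month and 10.21 in the 1-month SmoM2 tumour, and 8.18 in the cerebellum. The lowest tumour was still 1.33 above the cerebellum. Pbx3 rose by 1.66 ± 0.31, a factor of 3.16, with an adjusted p = 0.0265 in limma. The call was lost without the PtchLacZ/+ tumour (1.68 ± 0.38, adjusted p = 0.0723), where 7.85% of all genes passed, and when p-values were adjusted over all probe sets of the array (adjusted p = 0.0827).

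Meis1 encodes a TALE protein that in mice is needed for granule cell development and acts upstream of Pax6 in these cells. Its level was 11.12 in the PtchLacZ/+ tumour, 10.08 in the 2-month and 11.16 in the 1-month SmoM2 tumour, and 9.34 in the cerebellum. The tumours did not overlap with the cerebellum, but the 2-month SmoM2 tumour stood 1.08 below the 1-month tumour. The difference was 1.45 ± 0.48 and did not pass (adjusted p = 0.116 in limma). It passed without the 2-month SmoM2 tumour, at 1.80 ± 0.15 (adjusted p = 0.00126 in limma), a fit in which 30.1% of all genes passed.

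Meis2, its paralogue, is expressed in several forebrain and hindbrain cell groups. Its level was 5.24 in the PtchLacZ/+ tumour, 5.37 in the 2-month and 5.36 in the 1-month SmoM2 tumour, and 5.59 in the cerebellum. These 4 values spanned little and stood not far above the lower quartile of named genes. The difference was -0.27 ± 0.17 (adjusted p = 0.395 in limma), and its mean over the 4 arrays lay in the lower part of all genes, under their median.

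Pax6 encodes a factor with a paired domain and a homeodomain, present in granule progenitors and granule neurons and known as a master gene of the eye. Its level was 10.32 in the PtchLacZ/+ tumour, 9.14 in the 2-month and 9.86 in the 1-month SmoM2 tumour, and 9.48 in the cerebellum. The cerebellum thus lay between the SmoM2 tumours. The difference of the 3 tumours was 0.29 ± 0.46 (adjusted p = 0.765 in limma), and the tumours spanned 1.17 among themselves. Without the PtchLacZ/+ tumour the difference was 0.02, and without the 2-month SmoM2 tumour it was 0.60, neither past the threshold.

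Pax3, a gene of the dorsal neural tube and the neural crest, stood the other way. Its level was 6.30 in the PtchLacZ/+ tumour, 5.67 in the 2-month and 6.16 in the 1-month SmoM2 tumour, and 7.03 in the cerebellum. Every tumour was below the cerebellum, with differences of -0.73 in the PtchLacZ/+ tumour, -1.37 in the 2-month and -0.88 in the 1-month SmoM2 tumour. The difference was -0.99 ± 0.29, which did not pass (adjusted p = 0.0897 in limma) except without the 2-month SmoM2 tumour (-0.81 ± 0.16, adjusted p = 0.0159). In that fit 30.1% of all genes passed. Of 8 neural crest and melanocyte markers, 1 passed as lower, beside 9.30% of all genes, and none as higher. That marker was Tfap2b, a gene also of cerebellar inhibitory interneurons, which fell by 2.77 ± 0.19 (adjusted p = 0.0040 in limma). The list median was -0.02, and only 1 of the 8 had a mean level above the median of all genes. The part of any cell type in the Pax3 values was not tested.

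Tlx3 encodes a homeodomain factor that promotes excitatory over inhibitory fate in the dorsal spinal cord of mice. Its level was 7.08 in the PtchLacZ/+ tumour, 6.85 in the 2-month and 7.22 in the 1-month SmoM2 tumour, and 6.63 in the cerebellum. All tumours were above the cerebellum, by 0.23 to 0.60. The difference was 0.43 ± 0.21 (adjusted p = 0.271 in limma).

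**Figure D2:**
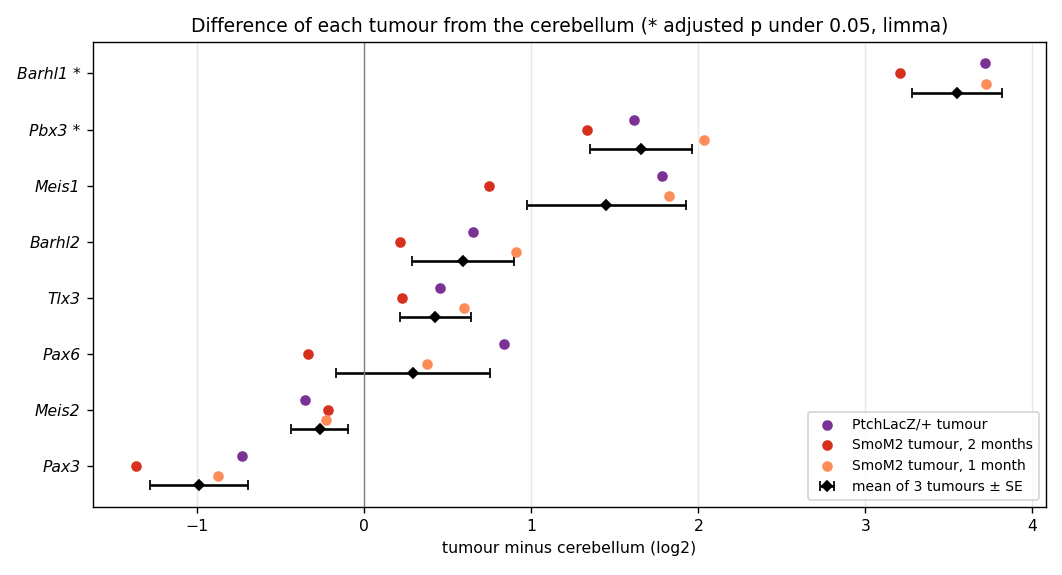
Difference from the cerebellum on the log2 scale (x axis) for each measured gene (rows), with 1 point for each tumour and the mean of the 3 tumours with limma's standard error as a diamond. Barhl1 at 3.55 and Pbx3 at 1.66 passed, and the 2-month SmoM2 tumour is the leftmost of the 3 tumours for every gene but Meis2.

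The tumours were then compared with each other. No gene of 19938 differed between the PtchLacZ/+ tumour and the 2 SmoM2 tumours at an adjusted p under 0.05 in limma (0.00%), and 280 genes (1.40%) had an unadjusted p under 0.05, none of them a member. Among members the difference ran between -0.13 ± 0.25 for Meis2 and 0.82 ± 0.38 for Pax6, with an adjusted p = 0.9998 throughout. Pax6 was at 10.32 in the PtchLacZ/+ tumour and averaged 9.50 ± 0.50 in the SmoM2 tumours (SD, n = 2). Its difference had an unadjusted p = 0.0862 in limma. The PtchLacZ/+ tumour lay outside the range of the SmoM2 tumours for 3 of the 8 members (Meis2, Pax6 and Pax3), against 54.8% of all genes. With 1 residual degree of freedom, these misses do not show that the tumours had equal levels.

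Between the SmoM2 tumours, most members were lower at 2 months than at 1 month. With 1 array each there was no test. The 2-month level was below the 1-month level for 7 of 8 members, against 40.1% of all genes, and the median difference, 2 months minus 1 month, was -0.61 over the members and 0.08 over all genes. Meis1 was lower at 2 months by more than 1 log2 unit (-1.08), as were 2.05% of all genes. A difference that large in either direction was found for 3.71% of all genes. The other differences were -0.71 for Pax6, -0.70 for Pbx3, -0.69 for Barhl2, -0.52 for Barhl1, -0.49 for Pax3, -0.37 for Tlx3 and 0.01 for Meis2. The 2-month SmoM2 tumour was also the lowest of all 3 tumours for the same 7 members, against 30.8% of all genes. After quantile normalization the counts were 7 members and 37.7% of all genes.

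Most genes of the granule progenitor list were also lowest of the 3 tumours in the 2-month SmoM2 tumour, some by little. Most mature granule neuron markers were not. Of 13 measured granule neuron progenitor markers, 11 were lowest of the 3 tumours in the 2-month SmoM2 tumour, among them Neurod1 and Nhlh1. Neurod1 was at 11.07 in the PtchLacZ/+ tumour, 10.00 in the 2-month and 11.10 in the 1-month SmoM2 tumour, and 11.95 in the cerebellum. Its level was thus highest in the adult tissue, and the list does not mark progenitors alone. The size of the drop from 1 to 2 months varied within the list. The difference was -1.45 for Cntn2 and -1.11 for Neurod1, but -0.03 for Ccnd2, -0.08 for Gli1 and -0.12 for Gli2. Atoh1 and the Myc-network gene Mxd3, the progenitor markers not lowest there, were 0.45 and 0.78 higher at 2 months than at 1 month. Of 14 mature granule neuron markers, 8 were lowest in the PtchLacZ/+ tumour, against 31.1% of all genes, and 4 in the 2-month SmoM2 tumour, against 30.8%. Between the SmoM2 tumours alone, the mature list too was lower at 2 months, with a mean level of 7.75 against 8.09 at 1 month. Its mean was 7.02 in the PtchLacZ/+ tumour. Among the 9 endothelial and mural markers, all but Tek were highest of the 3 tumours in the 2-month tumour, as were 49.9% of all genes, and the mean level of the list was 7.03 in the PtchLacZ/+ tumour, 7.91 in the 2-month and 6.83 in the 1-month SmoM2 tumour, and 7.52 in the cerebellum. Other lists had a like count, with 11 of 14 anterior Hox genes, 9 of 11 other LIM homeobox genes and 7 of 8 neural crest and melanocyte markers highest there. Ttr, the transthyretin gene of choroid plexus epithelium, was at 10.81 in the PtchLacZ/+ tumour, 4.50 in the 2-month and 11.27 in the 1-month SmoM2 tumour, and 6.23 in the cerebellum. Its list was divided, since of 9 roof plate and choroid plexus markers 4 were lowest and 4 highest of the 3 tumours in the 2-month tumour. The proliferation list averaged 10.78 in the PtchLacZ/+ tumour, 10.66 in the 2-month and 10.57 in the 1-month SmoM2 tumour, and 5.87 in the cerebellum. The part of these cell types, of age or of the sample itself in the members' values was not tested.

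**Figure D3:**
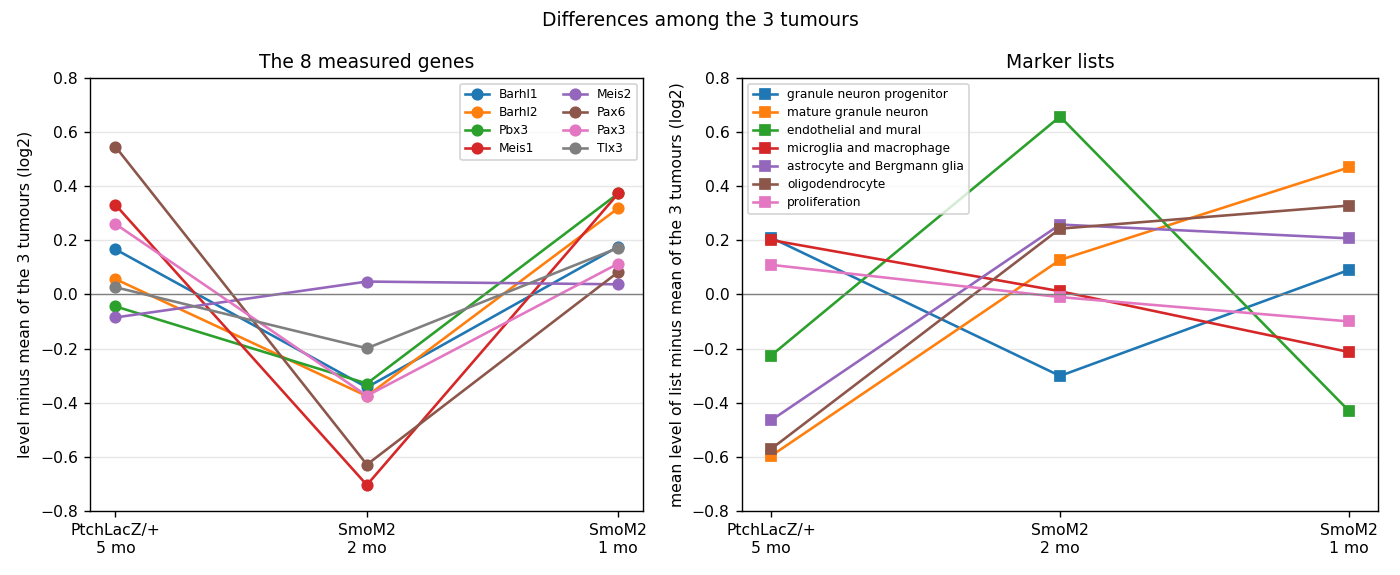
Left, the level of each measured gene minus its mean over the 3 tumours (y axis, log2). Right, the same for the mean level of 7 marker lists, with lines joining the values of one gene or list. The 2-month SmoM2 tumour is low for 7 of the 8 genes and for the granule progenitor list and high for the endothelial and mural list.

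The related families give the setting of these genes. Over 5 lists of relatives with 51 measured genes, 3 rose and 1 fell in the tumours, beside 16.0% of all genes that passed in either direction. Many relatives had low levels. A mean over the arrays above the median of all genes was found for 9 of 14 other TALE and 2 of 11 other LIM genes. It was found for 0 of 7 PAX, 0 of 5 Tlx and Bar-related and 0 of 14 Hox genes, against 6 of the 8 members. Whether low levels hid changes was not tested. Of 14 other TALE genes, Tgif1 (3.13 ± 0.27, adjusted p = 0.00523) and Tgif2 (1.84 ± 0.28, adjusted p = 0.0165), which encode repressors of TGF-beta and retinoid signalling, rose. Irx3, of the Iroquois group, fell by 0.95 ± 0.17 (adjusted p = 0.0266 in limma), and Pknox2 differed by -0.79 ± 0.19 (adjusted p = 0.0543). Of 11 other LIM homeobox genes, Lhx2, which patterns forebrain progenitors and the eye field, rose by 2.40 ± 0.21 (adjusted p = 0.00514 in limma). It was at 7.74 in the PtchLacZ/+ tumour, 7.96 in the 2-month and 7.61 in the 1-month SmoM2 tumour, and 5.37 in the cerebellum. Lhx1, a gene of Purkinje cells and other GABAergic neurons, differed by 0.92 ± 0.40 (adjusted p = 0.215) and Lhx5 by -0.95 ± 0.36 (adjusted p = 0.163). Lhx9 differed by -0.026 ± 0.24 (adjusted p = 0.968).

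No gene passed among 7 other PAX genes (median 0.21), where Pax5 differed by 0.30 ± 0.21, Pax7 by 0.29 ± 0.16 and Pax2, a marker of GABAergic interneuron precursors, by -0.27 ± 0.18. None passed among 5 other Tlx and Bar-related genes (median 0.28), where Barx1 differed by 0.41 ± 0.20, Tlx2 by 0.36 ± 0.24 and Bsx by -0.0023 ± 0.18. None passed among 14 anterior Hox genes either (median 0.10), which pattern the hindbrain behind the cerebellum, and their mean level was 5.44 in the PtchLacZ/+ tumour, 5.52 in the 2-month and 5.36 in the 1-month SmoM2 tumour, and 5.31 in the cerebellum. Hoxa5 differed by 0.48 ± 0.17 and Hoxb3 by 0.44 ± 0.17, while Hoxb4 differed by -0.11 ± 0.16 and Hoxc4 by -0.046 ± 0.22. The lowest adjusted p in limma over these 3 lists was 0.143, for Hoxa5.

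**Figure D4:**
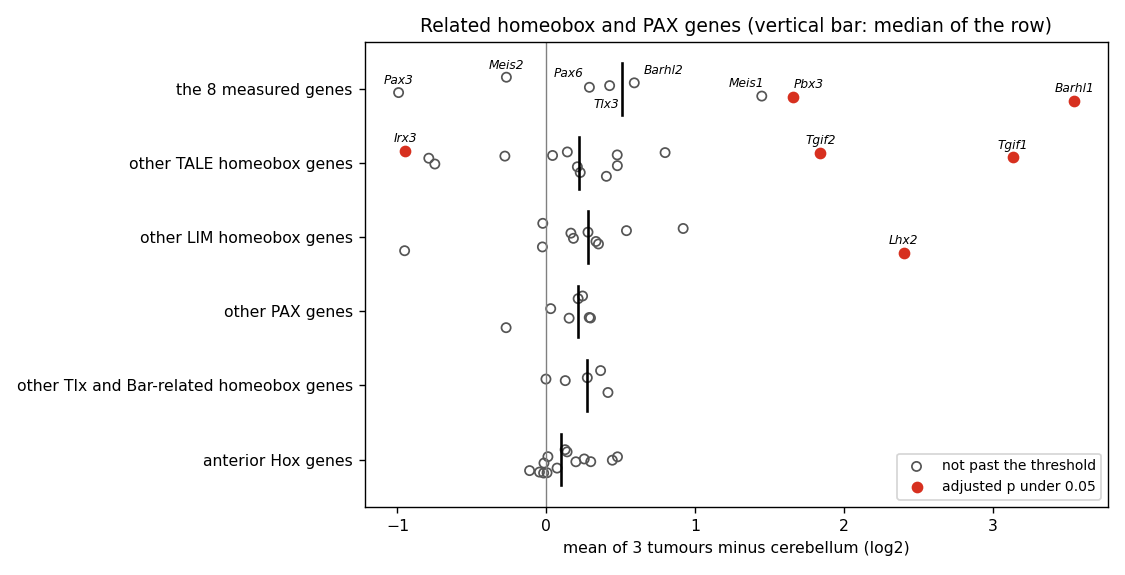
Mean of the 3 tumours minus the cerebellum on the log2 scale (x axis) for the 8 measured genes and for 5 lists of related genes (rows), 1 point per gene, filled where the adjusted p was under 0.05. Barhl1, Tgif1 and Lhx2 stand to the right. PAX, Tlx, Bar-related and Hox relatives sit near 0, and none of these had a mean level above the median of all genes.

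The marker lists place the samples, and their counts stand beside 6.70% of all genes that passed as higher and 9.30% as lower. Of 13 granule progenitor markers 9 rose (median 2.49), and of 7 proliferation markers all 7 rose (median 5.10). Mki67, a marker of dividing cells, was at 11.15 in the PtchLacZ/+ tumour, 10.20 in the 2-month and 11.01 in the 1-month SmoM2 tumour, and 5.38 in the cerebellum. Of 14 mature granule neuron markers 11 fell (median -3.51), with a mean level of 7.02 in the PtchLacZ/+ tumour, 7.75 in the 2-month and 8.09 in the 1-month SmoM2 tumour, and 11.23 in the cerebellum. Of 7 unipolar brush cell and rhombic lip markers 1 rose and 3 fell. Eomes, the defining factor of unipolar brush cells, fell by 1.43 ± 0.18 (adjusted p = 0.0101) and was at 5.74 in the PtchLacZ/+ tumour, 5.92 in the 2-month and 5.78 in the 1-month SmoM2 tumour, and 7.25 in the cerebellum. Otx2 differed by 1.79 ± 0.70 (adjusted p = 0.168 in limma). Of 13 GABAergic progenitor and interneuron markers 5 fell, and Ptf1a, the factor that sets GABAergic fate, was between 4.91 and 5.03 in all 4 arrays, under the lower quartile of each. Falls were also found for 4 of 8 Purkinje cell markers, 6 of 10 astrocyte and Bergmann glia markers, 7 of 8 oligodendrocyte markers and 1 of 9 endothelial and mural markers. Of 8 microglia and macrophage markers 3 rose, and none of 9 roof plate and choroid plexus markers passed. Calb2, Pax2, Lhx1, Lhx5 and Skor2 stand in more than one list.

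For the 6 members whose mean over the arrays exceeded the median of all genes, the genes with the most similar profile were sought. Likeness was the Euclidean distance between the 4 log2 levels, each minus its own mean, over 9968 other genes above that median. It describes 4 arrays only. Nearest to Barhl1 were Ticrr (distance 0.08), which acts in replication initiation, Pdgfra (0.15), a growth factor receptor gene, and Tox3 (0.23). Pdgfra was at 11.43 in the PtchLacZ/+ tumour, 10.91 in the 2-month and 11.40 in the 1-month SmoM2 tumour, and 7.86 in the cerebellum. Nearest to Meis1 were Prr36 (0.13), Soga3 (0.16) and Dpysl5 (0.19), the last of which encodes a protein of growing axons. Nearest to Pbx3 were Bcas1 (0.18), Tmeff1 (0.20) and Rftn2 (0.21), and to Pax6 Snora62 (0.19), Ppp1r9a (0.20) and Hmgb1 (0.23). Barhl2 had Dclk2 (0.02), Sbf2 (0.07) and Arid3a (0.07) as nearest genes, and Tlx3 had Slf1 (0.05), Ncoa3 (0.06) and Gpr3 (0.07).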

How the data were processed

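The deposited table holds 1 log2 value for each of 35557 probe sets on 4 arrays, which the authors computed in Affymetrix Expression Console (source: the submitters' processing notes). How probes were summarised and arrays normalized is not given there. The log2 scale was inferred from the limits of the values, 2.71 and 14.9. No further scaling was applied. The number of arrays limits the precision, and p-values measure only the spread between these samples.

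The platform annotation gave 21789 probe sets a single symbol, 1621 several and 12147 none. Symbols were updated by Entrez identifier through RefSeq (21698 matched, GRCm38.p6), and of several probe sets of a gene the one with the highest mean was kept. Tumours were compared with the cerebellum (2 residual degrees of freedom), and the PtchLacZ/+ tumour with the SmoM2 tumours (1), by lmFit and eBayes in limma 3.58.1 (R 4.3.3) with Benjamini-Hochberg adjustment over all 19938 genes and a threshold of 0.05. The fits were tested on simulated data. Alternatives were quantile normalization, the mean of probe sets, only genes above the median level, a trended prior, all probe sets, and leaving out each tumour.

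The text names the members, the genes of the fixed lists with the 2 highest and 2 lowest differences (all of them for relatives, some of them for markers), 5 markers in every sample, and the 3 nearest genes. Members, lists and motifs were chosen with earlier results of these data known, and the motifs after the promoter sequences had been viewed.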

Additional observations from a re-analysis of the deposited data

How the results depend on the processing

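In tumour against cerebellum, 3191 genes passed, against 1616 of all 35557 probe sets when each was tested. Without 1 tumour the count was 1565 (without PtchLacZ/+) to 6010 (without the 2-month SmoM2 tumour). Barhl1 passed under every alternative listed. Pbx3 missed the threshold over all probe sets (1.66, adjusted p = 0.0827 in limma), where more features were tested and prior variance was re-estimated, and ranged from 1.47 to 1.82 without 1 tumour, missing without PtchLacZ/+. Barhl2 (0.43 to 0.78), Meis1 (1.26 to 1.80) and Pax3 (-1.12 to -0.81) passed without the 2-month SmoM2 tumour and under no other alternative. In that fit 5 of 8 members passed in all, beside 30.1% of all genes. The cause was not tested. Among genes above the median level, 6 of the 8 members were tested, and Meis2 and Pax3 have no value there. No alternative with a test reversed the sign of a member's difference.

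In PtchLacZ/+ against SmoM2 tumours, 0 genes passed in limma (280 at an unadjusted p under 0.05), and 4 passed among genes above the median level. In that setting fewer genes were tested and prior variance was re-estimated, and the part of either was not tested. Set against 1 SmoM2 tumour at a time, with no test, the difference had either sign for 5 members, Pbx3 (-0.42 to 0.28), Barhl2 (-0.26 to 0.43), Tlx3 (-0.15 to 0.23), Barhl1 (-0.01 to 0.51) and Meis1 (-0.04 to 1.04). Between the SmoM2 tumours, 740 genes differed by at least 1, and 536 to 773 under the alternatives. No paired analysis was possible because the labels give the samples no replicate numbers or other pairing.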
